A study of Macaca fascicularis with 80 samples.

Results

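The genes described here are 150 genes of macaque blood whose centred level was higher on day 8 than on day 7, that is 24 h after the third dose of IL-15/IL-15Ra, while their level on day 1, 24 h after the first dose, stayed close to that of day 0. They were selected on these same measurements. For each of 80 libraries the counts were scaled to the library total as CPM, and genes with a mean of at least 5 CPM were kept, which left 9939 of 38550. The level of a gene in a library is log2(CPM + 1) minus the median of that library over the kept genes, and is called the centred level below. Members had a mean centred level at least 0.4 higher on day 8 than on day 7, with a difference from day 0 under 0.1 on day 1 and under 0.3 on days 10 and 21, in either direction. These conditions were met by 178 genes, and the 150 with the largest day 8 minus day 7 difference were taken.

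Whole blood of 8 cynomolgus macaques, 4 females and 4 males, was profiled by bulk RNA sequencing on 10 days, with 1 library per animal and day. All animals received the complex of interleukin 15 with its receptor alpha chain, in 3 rising doses of 5, 10 and 15 µg/kg given on days 0, 3 and 7, so every group contains the same animals. In the labels the dose is 0 for libraries of day 0, 5 µg/kg for days 1 and 3, 10 µg/kg for days 4 and 7, and 15 µg/kg from day 8 to day 21. Whether blood of days 3 and 7 was drawn before that day's dose is not stated and was inferred from these labels. No animals left undosed were analysed, the animals' age is not given, and dose, order of dosing and elapsed time cannot be told apart.

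Interleukin 15 is a cytokine that is shown to its target cells while bound to the receptor alpha chain of a neighbouring cell, and the complex given here imitates that form. Its target cells carry the beta chain shared with the receptor of interleukin 2 and the common gamma chain, and signal through Janus kinases and STAT proteins. The cytokine sustains natural killer cells and memory CD8 T cells, and dosing of primates is known to move lymphocytes out of the blood and later to bring back dividing ones. In bulk blood, fewer cells of a type and less RNA per cell cannot be told apart. The deposited identifiers are not paired with gene names in the sources used here, and a search of the available gene table found 0 of them. The lists of cell type markers and pathways could therefore not be counted, whole blood could not be checked against its markers, and the members' products, roles and sequences are not given. Only 4 members are printed by identifier.

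The libraries held 17.1 to 80.2 M counts each (M, mega), with a median of 24.3 M. On day 8 the libraries of animals 39102, 39103 and 39104, all males, held 58.6, 49.5 and 51.9 M counts, against 23.2 to 26 M in the other 5, and on day 7 that of 39097 held 51.4 M. Column names carry a sequencing run and library tag that 71 libraries share. The day 7 library of 39095 has another library tag, and 3 libraries of day 10 and 5 of day 14 have another run tag. The labels do not say whether these libraries differ in any other way.

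The members were well measured. Their mean level ran from 5.22 to 9257 CPM with a median of 97.1 CPM, against a median of 35.9 CPM over all kept genes. CPM is not scaled to gene length, so this orders reads and not molecules. No member was at 0 in any library, and the lowest count was 39. Together the members took between 2.77% and 5.40% of a library's counts, with a median of 3.73%. All 150 passed the low-count filter of the tests below. The lowest member had a day 8 minus day 7 difference of 0.4368, the highest gene beyond the limit of 150 had 0.4352, the lowest gene meeting all conditions had 0.4005 and the highest gene just missing the first condition had 0.3991. Members lay up to 0.0989 from day 0 on day 1, and the nearest gene outside that limit was at 0.1001.

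The median centred level of the members in a library was between 1.53 and 2.52 on day 8, with a median over the 8 animals of 1.93, against 0.89 to 2.05 on day 7 with a median of 1.37. These ranges overlap because animal 39103 was already at 2.05 on day 7. Within animals, the median over members of the day 8 minus day 7 difference was positive in all 8. It was 1.56 in animal 39104 and 1.17 in 39102, both males. In the females it was 0.34 in 39090, 0.38 in 39095, 0.18 in 39097 and 0.49 in 39098, and in the other males 0.35 in 39100 and 0.20 in 39103. The mean was 0.58 ± 0.50 (SD, n = 8), and 0.32 ± 0.12 (SD, n = 6) without 39102 and 39104. Relative to day 0, the day 8 difference was 0.48 ± 0.50 (SD, n = 8), positive in 7 animals and -0.14 in 39100. Day 7 minus day 0 was -0.09 ± 0.26 (SD, n = 8), positive in 2 animals and -0.40 in 39100. Since days 8, 7 and 0 entered the rule, these values are a description of the choice.

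**Figure D1:**
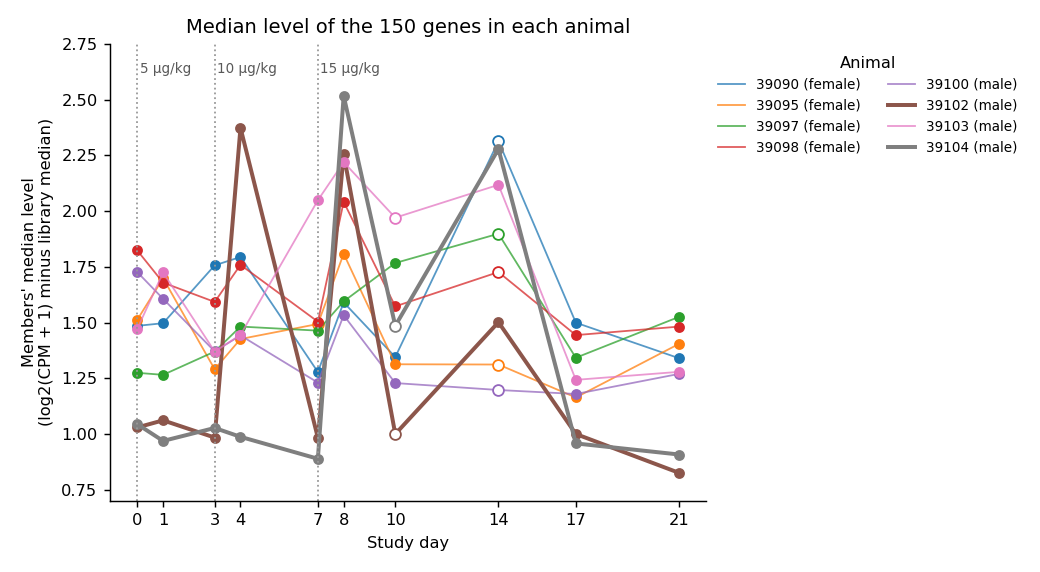
Median centred level of the 150 members (log2(CPM + 1) minus the library median, vertical axis) in each of 8 animals (colours) against study day. Dotted lines mark the days of dosing, and open circles mark libraries with another run or library tag. Animals 39102 and 39104 (thick lines) start lowest, near 1.0, and reach 2.26 and 2.52 on day 8, and 39102 also stands at 2.37 on day 4.

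A pair of animals carried much of the difference that chose the members. The largest day 8 minus day 7 difference of a member was in 39104 for 125 members and in 39102 for 23. The pair gave a median of 59.2% of the difference summed over the 8 animals (quartiles 51.7% and 66.2%), and over 50% of it for 116 members. Averaged over the other 6 animals, the difference was positive for 148 members and negative for 2. Its median over members was 0.30 there, and 32 members kept a mean of 0.4 or more. By direction, 89 members were higher on day 8 than on day 7 in all 8 animals and 145 in at least 6. With the rule applied to 6 animals without that pair, 34 genes met the conditions, 19 of them members. Of all kept genes, 33.6% were at least 0.4 higher on day 8 than on day 7 in 39104 and 30.7% in 39102. In the other 6 animals this share was 7.44% to 20.9%. Between 39102 and 39104 this difference had r = 0.94 across kept genes that are no members and 0.74 across members. The pair's large change was thus not particular to the members.

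The members' high centred level went with a low median of the library as a whole. On day 8 the library median over kept genes, as log2(CPM + 1), averaged 4.90 ± 0.22, against 5.24 ± 0.16 on day 7 (SD, n = 8 each), and it was lower in all 8 animals. Before that median was subtracted, the members' median level was 6.84 ± 0.17 on day 8, against 6.60 ± 0.21 on day 7 (SD, n = 8 each). Within animals the uncentred difference was 0.24 ± 0.22 (SD, n = 8), positive in all 8, and the library median changed by -0.34 ± 0.29 (SD, n = 8). The lowest library medians were 4.53 in 39104 on day 8, 4.58 in 39102 on day 4 and 4.58 in 39090 on day 14. These libraries had 11228, 11261 and 11541 genes at 1 CPM or more, against a median of 12522 over the 80 libraries. Their members' centred levels, 2.52, 2.37 and 2.31, were the 3 highest of all 80. With no centring, 41 genes met the conditions, 24 of them members. The part of library composition in the day 8 level was not tested.

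**Figure D2:**
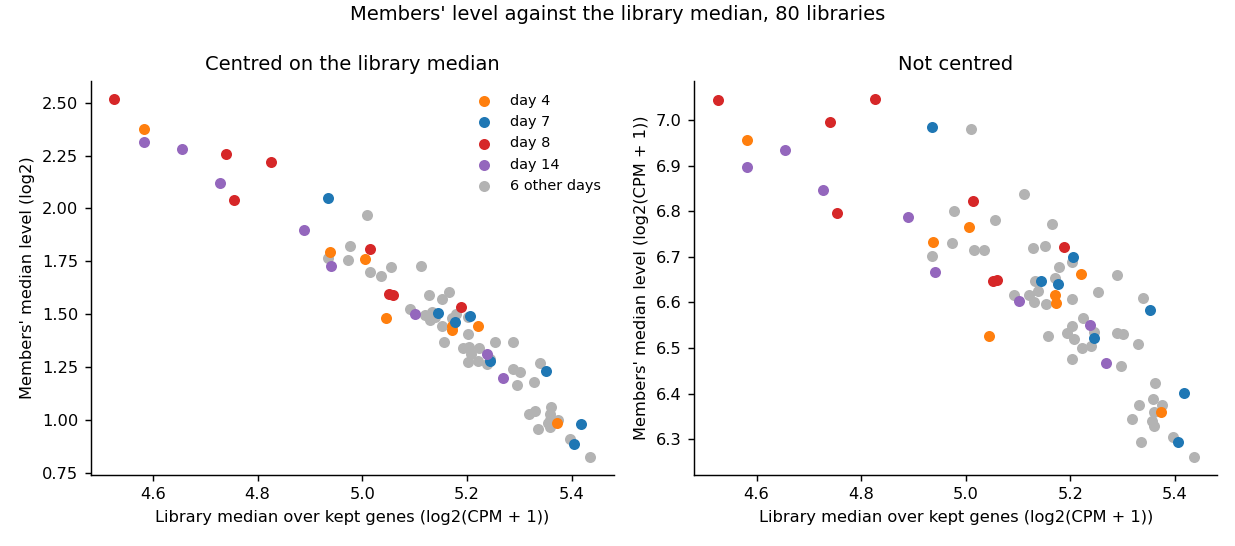
Members' median level in each of 80 libraries, centred on the library median (left) and not centred (right), against that library's median over the 9939 kept genes (log2(CPM + 1)); colours mark days 4, 7, 8 and 14. Libraries with a low median hold high members' levels in both panels, and part of the slope on the left comes from subtracting the horizontal value.

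In edgeR's quasi-likelihood test with animal as a block, 59 members were called higher on day 8 than on day 7 at a Benjamini-Hochberg adjusted p under 0.05. Of all 16054 genes tested, 6.0% were called higher, and since that contrast chose the members nothing is read from the 2 shares. The count dropped to between 1 and 35 (0.081% to 3.18% of all genes) without 39090, 39095, 39097, 39098, 39100 or 39102, each left out alone. It was 75 without 39103 (8.13% of all genes) and 41 without 39104 (4.52%). Without 39102 and 39104 together it was 78, where 8.8% of all genes were called higher. The rule was also applied to 7 animals and the chosen genes measured in the animal left out. Libraries of that animal then entered the choice only through the filter on mean CPM over the 80 libraries. The median day 8 minus day 7 difference of the chosen genes in that animal was positive each time. It was 1.69 in 39104 (72 genes), 1.21 in 39102 (121 genes) and between 0.12 and 0.45 in the other 6 animals (150 genes each). The share of these genes that were higher on day 8 was 73.3% to 98.3%, against 47.6% to 55.4% of all kept genes in the same animals. The rule used this same pair of days and genes are not independent replicates, so these shares are a description. Animals 39104 and 39102 again stood apart from the other 6.

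The second dose, given on day 3, asks whether the members behaved 24 h later as they did after the third. Days 3 and 4 had no part in the rule. The members' median centred level was 0.99 to 2.37 on day 4 with a median of 1.46, against 0.98 to 1.76 on day 3 with a median of 1.37. Animal 39102 alone stood at 2.37 on day 4, next to 1.79 in 39090. Within animals the median day 4 minus day 3 difference was 1.23 in 39102 and lay between -0.14 and 0.18 in the other 7. Its mean was 0.22 ± 0.42 (SD, n = 8), and 0.08 ± 0.11 (SD, n = 7) without 39102. All kept genes had a mean of 0.00 ± 0.02 (SD, n = 8).

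**Figure D3:**
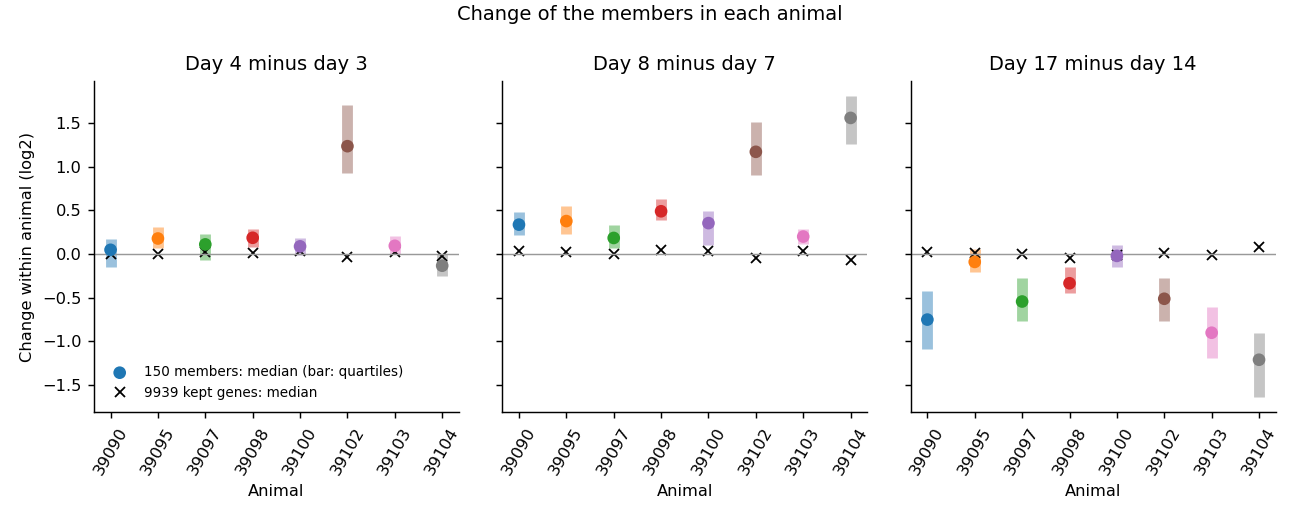
Median within-animal change of the 150 members (circles, with bars from the lower to the upper quartile) and of the 9939 kept genes (crosses), on the log2 scale, for 3 pairs of days. Day 4 minus day 3 is large in 39102 only, day 8 minus day 7 is above 0 in all 8 animals, and day 17 minus day 14 is below 0 in all 8.

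Averaged over 8 animals, 147 of the 150 members had a positive day 4 minus day 3 difference, against 51.9% of all kept genes, and the median over members was 0.22. For 143 members the largest of the 8 differences was in 39102, while this held for 35.6% of all kept genes. In edgeR's test 0 of 150 members were called changed on day 4 relative to day 3, where 0.181% of 16054 genes were called. At an unadjusted p under 0.05, 11 members were higher and 0 lower (7.33%), against 11% of all genes in either direction. DESeq2 called 1 member higher (0.667%), against 0.236% of its genes, and without 39102 edgeR called 1 member higher, against 0.255% of all genes. By direction, 89 members (against 25.4% of all kept genes) were higher on day 4 in at least 6 of 8 animals and 1 in all 8. The library of 39102 held 25.6 M counts on day 4, against 23.8 M on day 3. Its library median was 4.58 on day 4, against 5.36 on day 3, and the part of that in the members' difference was not tested.

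In 39102 the same members that were far higher on day 4 than on day 3 were also far higher on day 8 than on day 7, 4 libraries that are not shared between the differences. Across the 150 members r was 0.84 between these differences of 39102. Between day 4 minus day 3 in 39102 and day 8 minus day 7 in 39104 it was 0.67. Kept genes that are no members reached 0.90 in both pairings, so this likeness was not particular to the members. These correlations run across genes, which are not independent replicates, within single animals.

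**Figure D4:**
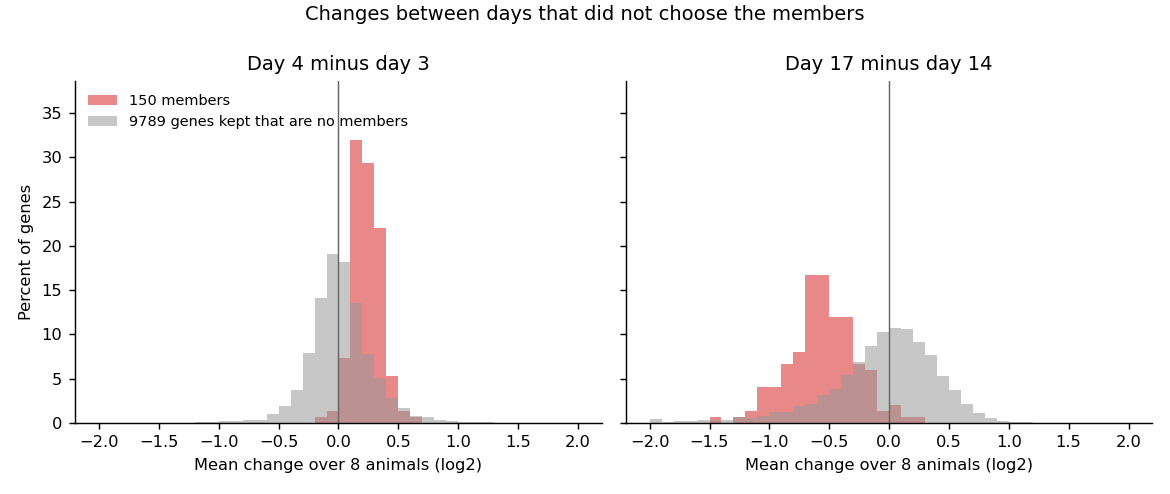
Share of genes (percent) by mean change over 8 animals (log2), for the 150 members and the 9789 other kept genes, between pairs of days with no part in the choice. The members lie right of 0 for day 4 minus day 3 and left of 0 for day 17 minus day 14, and overlap the other genes in both.

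Days 3 and 4 were next set against day 0, which entered the rule's conditions on days 1, 10 and 21 and is shared by both comparisons. On day 3 the members' median difference from day 0 was -0.07 ± 0.19 (SD, n = 8), with 3 of 8 animals above 0. edgeR called 4 members lower and 0 higher at an adjusted p under 0.05. That is 2.67% of the members, against 7.44% of all genes tested and 10.8% of those with a mean of at least 5 CPM. At an unadjusted p under 0.05, 20 members were lower and 2 higher (14.7%), against 29% of all genes in either direction. DESeq2 called 12 lower (8%) and 0 higher, against 11.1% of its genes lower. Leaving out any single animal moved the count by over 1.5 times, to between 0 and 16. Of all genes, 4.64% to 9.92% were called lower in those fits. On day 4 the difference from day 0 was 0.15 ± 0.46 (SD, n = 8), 1.21 in 39102 and -0.20 to 0.29 in the other 7. By edgeR 0 members were called on day 4 relative to day 0, against 3.05% of all genes. At an unadjusted p under 0.05, 14 were higher and 0 lower (9.33%), against 19.2% of all genes in either direction, and DESeq2 called 3 higher (2%), against 5.73% of its genes.

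After the third dose the members' level on day 10 was back near day 0, which the rule demanded of the mean. The animals nevertheless lay apart, between -0.41 in 39100 and 0.45 in 39097. On day 14, 1 week after the last dose and with no part in the rule, the median centred level was 1.20 to 2.31 with a median of 1.81, against 1.03 to 1.82 on day 0 with a median of 1.48. The difference within animals was 0.74 in 39090, -0.25 in 39095, 0.62 in 39097, -0.05 in 39098, -0.40 in 39100, 0.46 in 39102, 0.63 in 39103 and 1.19 in 39104. Thus 5 animals were higher and 3 lower, with a mean of 0.37 ± 0.55 (SD, n = 8). Single members ranged from -0.44 to 1.22 in their mean difference, against -2.31 to 3.78 over all kept genes. Of the members, 66 were at least 0.4 above day 0 and 17 were below it. Above day 0 were 88.7% of the members, against 48.5% of all kept genes, whose upper quartile was 0.27.

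edgeR called 11 members higher on day 14 than on day 0, which is 7.33%, against 7.2% of all genes tested and 9.81% of those with a mean of at least 5 CPM, a share near the background. The count was 2 to 7 without 39090, 39097, 39102 or 39103 (4.04% to 5.1% of all genes). It was 22 without 39095 (6.55% of all genes) and 31 without 39100 (6.76%). With library totals in place of TMM scaling factors (trimmed means of M-values), 9 members were called higher and 5 lower. Of all genes, 2.09% were called higher and 11.7% lower with those totals. Of the day 14 libraries, 5 came from another run. The 3 animals in the shared run, all males, had differences of 0.46, 0.63 and 1.19, and the 5 in the other run, 4 females and 1 male, ran from -0.40 to 0.74 with a median of -0.05. Within the shared run 62 members were called higher (41.3%), against 5.01% of all genes. Those animals include 39102 and 39104, the pair that carried much of the choice. Run, sex and the presence of that pair cannot be told apart there. Without 39102 and 39104, 1 member was called higher on day 14 (0.667%), against 3.68% of all genes. The library median again went with the members, at 4.93 ± 0.26 on day 14, against 5.17 ± 0.12 on day 0 (SD, n = 8 each).

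Between days 14 and 17, 92 of the 150 members fell and 0 rose by the test given below. Both days had no part in the rule. The members' median centred level was 0.96 to 1.5 on day 17 with a median of 1.21, against 1.20 to 2.31 on day 14 with a median of 1.81. Within animals the difference was below 0 in all 8, from -1.21 in 39104 and -0.90 in 39103 to -0.09 in 39095 and -0.02 in 39100. Its mean was -0.55 ± 0.40 (SD, n = 8), against 0.01 ± 0.04 (SD, n = 8) for all kept genes. Of the 150 members, 92 were called lower and 0 higher by edgeR at an adjusted p under 0.05. The called share is 61.3%, against 10.8% of all genes tested and 15.2% of those with a mean of at least 5 CPM. At an unadjusted p under 0.05, 117 members were lower and 0 higher (78%), against 37.2% of all genes in either direction. DESeq2 called 108 lower (72%) and 0 higher, against 17.2% of its genes lower.

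The median log2 fold change of the members was -0.58 with all 8 animals, and -0.66 to -0.48 with each animal left out in turn. Without 39102 or without 39103, 0 members and 0 of all 16054 genes passed edgeR's adjusted threshold. At an unadjusted p under 0.05, 113 members were then lower without 39102 (75.3%, against 32.9% of all genes in either direction) and 105 without 39103 (70%, against 30.3%). Only 4 were called lower without 39090 (0.467% of all genes) and 40 without 39097 (3.16%). With library totals 42 members were called lower (4.35% of all genes) and 5 higher (32.7%), while the median of all genes moved to 0.43. Within the 3 animals whose libraries share the run tag, 53 were called lower (35.3%), against 4.8% of all genes. These animals include 39102 and 39104, without which 0 members were called, against 0.00623% of all genes lower. The library median was higher on day 17 in all 8 animals, by 0.35 ± 0.24 (SD, n = 8), and the uncentred members' level was lower by a smaller amount, with a mean difference of -0.20 ± 0.18 (SD, n = 8).

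On day 17 the members stood below day 0, with a median difference of -0.20 ± 0.18 (SD, n = 8) and 1 of 8 animals above 0. edgeR called 33 members lower and 0 higher. That is 22%, against 13.6% of all genes tested and 19.1% of those with a mean of at least 5 CPM, near the latter share. With library totals 10 were called lower (6.67%), against 9.65% of all genes. Without the animal block 3 were called lower (2.0%), against 6.24% of all genes. The count was 8 to 17 without 39095, 39098, 39100, 39103 or 39104 (9.83% to 10.6% of all genes), and 50 without 39097 (13.6%). Day 21, whose distance from day 0 the rule limited, had a median difference of -0.18 ± 0.17 (SD, n = 8).

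The sexes were compared because the pair with the largest day 8 difference was male. The mean of the members' median day 8 minus day 7 difference was 0.82 ± 0.65 in males, against 0.35 ± 0.13 in females (SD, n = 4 each), and males 39100 and 39103 lay within the females' range. In edgeR's test of the sex difference in that change, 0.0% of 16054 genes and 0 members were called, with 6 members and 731 genes at an unadjusted p under 0.05, and DESeq2 called 0 members. Without 39102 and 39104 the members' median log2 difference, males minus females, turned to -0.04, against 0.54 with all animals.

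The 4 members printed by identifier show how far single genes departed from this course. ENSMFAG00000003033 and ENSMFAG00000045907 had the largest day 8 minus day 7 difference, 1.08 and 1.05. ENSMFAG00000003033 had 1200 to 1769 CPM on day 8 with a median of 1405 CPM, against 432 to 1492 CPM on day 7 with a median of 933 CPM. It was higher on day 8 in all 8 animals, and 39102 and 39104, lowest on day 7 at 496 and 432 CPM, had 1245 and 1506 CPM on day 8, inside the range of the others. It had 570 to 1645 CPM on day 4 with a median of 1189 CPM, against 612 to 1699 CPM on day 3 with a median of 1027 CPM. These ranges overlap, and the log2 fold change of 0.35 ± 0.20 (SE) did not pass (adjusted p = 0.49, edgeR's quasi-likelihood test). It had 748 to 1436 CPM on day 17 with a median of 942 CPM, against 1040 to 2107 CPM on day 14 with a median of 1483 CPM. There it fell, by edgeR's test, with a log2 fold change of -1.01 ± 0.20 (SE, adjusted p = 0.019). That adjusted p lay between 0.051 and 0.058 without 39090, without 39102 or without 39103.

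ENSMFAG00000045907 had 70.9 to 292 CPM on day 8 with a median of 138 CPM, against 57.7 to 218 CPM on day 7 with a median of 88.9 CPM. On day 8, animals 39102, 39103 and 39104 had 290, 276 and 292 CPM, apart from the 164 CPM of the next animal, and 39103 already had 218 CPM on day 7. On day 4 it had 263 CPM in 39102 and 53.8 to 114 CPM in the other 7, against 59.6 to 133 CPM on day 3 in all 8. The log2 fold change from day 3 to day 4 was 0.37 ± 0.27 (SE, adjusted p = 0.56 by edgeR). On day 17 it had 52.2 to 108 CPM with a median of 92.0 CPM, against 75.7 to 308 CPM on day 14 with a median of 151 CPM. It was called lower, at a log2 fold change of -1.21 ± 0.32 (SE, adjusted p = 0.028 by edgeR), and was not called without 39090, 39097, 39102 or 39103, at adjusted p from 0.061 to 0.080.

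ENSMFAG00000060865 and ENSMFAG00000016924 had the smallest day 4 minus day 3 difference, -0.13 and -0.06. They were printed for that difference, so their values and tests for days 3 and 4 are a description. ENSMFAG00000060865 had 7.61 to 32.8 CPM on day 4 with a median of 19.3 CPM, against 15.4 to 39.7 CPM on day 3 with a median of 19.9 CPM. The groups overlap, and the log2 fold change was -0.13 ± 0.17 (SE, adjusted p = 0.75 by edgeR). On day 8 animal 39102 was the lowest, at 5.77 CPM, so this member did not share the high day 8 level of that animal. It was highest on day 14, where it had 23.4 to 95.3 CPM with a median of 34.8 CPM, against 11.7 to 29.5 CPM on day 0 with a median of 21.0 CPM. edgeR called it higher, with a log2 fold change of 1.29 ± 0.27 (SE, adjusted p = 0.012). That adjusted p was 0.064 without 39102 and 39104 together and at most 0.038 with 1 animal left out. On day 17 it had 6.91 to 58.2 CPM with a median of 18.2 CPM and was called lower than on day 14, at a log2 fold change of -1.57 ± 0.36 (SE, adjusted p = 0.022 by edgeR). Without 39090, without 39102 or without 39103 that last adjusted p lay between 0.053 and 0.063.

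ENSMFAG00000016924 had 65.9 to 181 CPM on day 4 with a median of 123 CPM, against 115 to 171 CPM on day 3 with a median of 133 CPM. Those days chose this member too, so nothing is read from its test between them. On day 8 its lowest animals were 39102 with 79.6 CPM and 39104 with 81.1 CPM, against 130 to 198 CPM in the other 6. In 39102 it had 79.6 CPM on day 8, against 101 CPM on day 7, and in 39104 it had 81.1 CPM, against 96.7 CPM. Its centred level was nevertheless higher on day 8 in both, at 1.59, against 1.25 on day 7, in 39102 and at 1.83, against 1.21 on day 7, in 39104. The log2 fold change from day 3 to day 4 was -0.04 ± 0.09 (SE, adjusted p = 0.86 by edgeR) and turned to 0.0021 without 39104. From day 14 to day 17 it was -0.35 ± 0.12 (SE, adjusted p = 0.055 by edgeR), and it turned to 0.02 with library totals (adjusted p = 0.88). It was called lower with relative log expression size factors (adjusted p = 0.047), by DESeq2 (adjusted p = 0.018) and by edgeR without 39100 (adjusted p = 0.028).

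**Figure D5:**
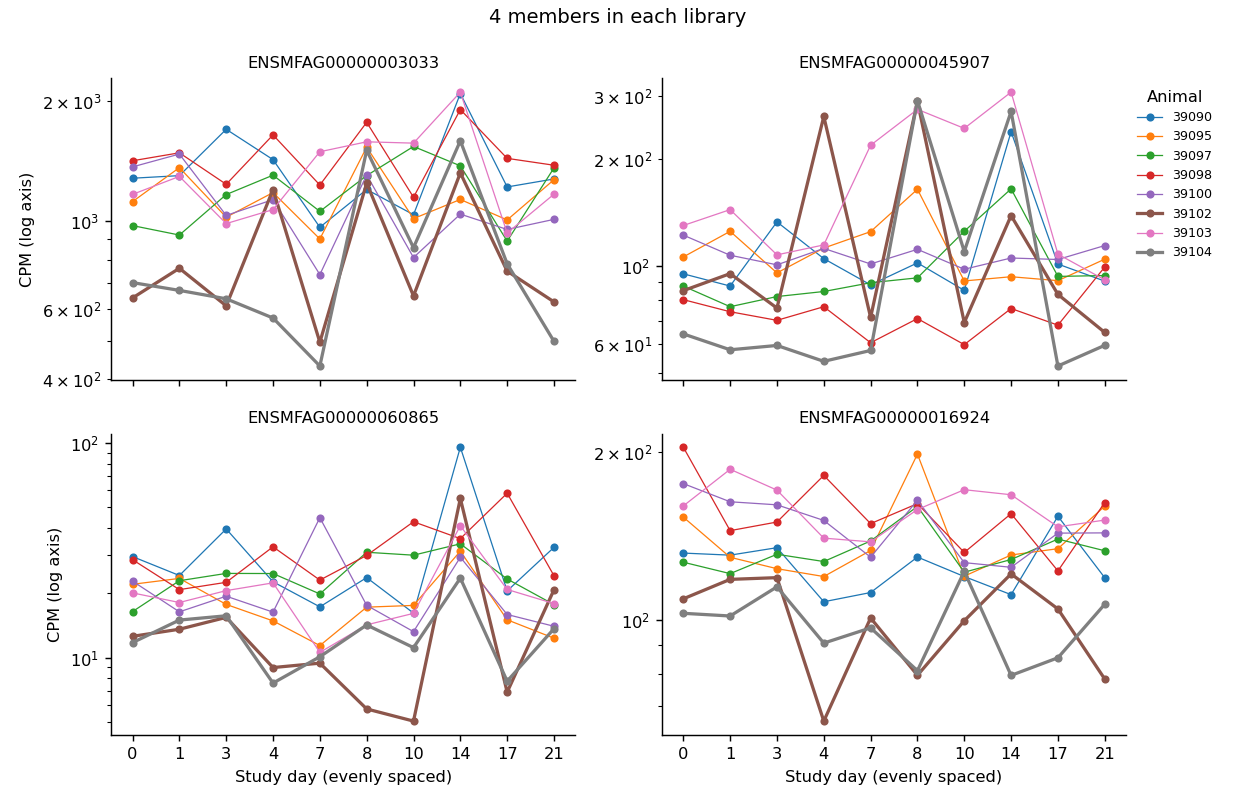
CPM (log axis) of the 4 members printed by identifier, in each animal (colours) against study day. In the upper panels animals 39102 and 39104 are near the lowest on day 7 and inside or above the others on day 8, while in the lower panels both are at or near the lowest on day 8.

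Beyond the days that chose them, the members varied together. Over the 32 libraries of days 3, 4, 14 and 17, taken as deviations from the day means, a member's centred level had a median correlation of 0.78 with the mean of the other members, and 131 of 150 exceeded 0.5. Kept genes that are no members had a median of -0.08 with the members' mean, 24.8% exceeded 0.5 and 26.8% were under -0.5. Strong correlation with the members' mean, in either direction, was thus not particular to the members. The 32 libraries are 4 from each of 8 animals and share the centring, so this is a description. The SD over 8 animals had a median of 0.43 for members and 0.33 for kept genes on day 4, and on day 14 it was 0.50 for members and 0.36 for kept genes. By abundance, the 27 members under 30 CPM had a median day 17 minus day 14 difference of -0.44, the 51 from 30 to 100 CPM had -0.55 and the 72 above 100 CPM had -0.59. The median day 4 minus day 3 difference was 0.28, 0.26 and 0.20 in the same order of abundance.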

How the data were processed

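Whole blood was collected in PAXgene tubes, RNA was extracted with RNAdvance Blood and turned into mRNA libraries with KAPA HyperPrep, per the labels. The authors deposited whole-number read counts per gene, without normalization, in 2 tables that cover the same 80 libraries. The first (38550 genes) was used, and the second (35432 genes, other identifiers) only to repeat the rule. Which aligner, counter, build and strand rule made them was not given in the sources used here, so reads shared by near-identical or overlapping genes carry that uncertainty.

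CPM, centred levels and members were computed from the counts with pandas 2.3.3. Members and gene lists were chosen with earlier results of these data known, and the lists could not be run because 0 identifiers matched. Identifiers were printed by a rule, the 2 members with the largest day 8 minus day 7 and the 2 with the smallest day 4 minus day 3 difference. Tests used edgeR 4.0.16 in R 4.3.3 (filterByExpr, 16054 genes, TMM factors, glmQLFit and glmQLFTest), each pair of days fitted alone with animal as the block, and Benjamini-Hochberg adjustment over all genes. The procedure was tested on simulated data. The labels' animal numbers pair the libraries, and deviations from the day means had a median r of 0.44 within animals (lowest -0.14) and -0.06 between animals.

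Alternatives were DESeq2 1.42.0, other scaling, no filter, no block, and other settings of the rule. Others left out single animals, animals with a library above 40 M counts, or animals with a library outside the shared run and library tag. Leaving out 39102 and 39104 together was chosen after seeing the data. Counts carry counting error only in part, since reads without molecular identifiers are not independent molecules, and library totals of 17.1 to 80.2 M leave members with at least 39 counts each.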

Additional observations from a re-analysis of the deposited data

Results flagged for a closer look

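In 41 groups of 8 samples examined for a sample far from the rest, 8 had one. Chance alone flags about 1 in 20 independent groups. Some of the days examined chose the members or the printed identifiers, and some groups share libraries. The number flagged is therefore not read against that rate. The members' median day 4 minus day 3 difference was 1.23 in animal 39102, against -0.14 to 0.18 in the other 7, and the day 4 minus day 0 difference was 1.21 there, against -0.20 to 0.29. ENSMFAG00000045907 had 263 CPM on day 4 in 39102, against 53.8 to 114 CPM, and 218 CPM on day 7 in 39103, against 57.7 to 125 CPM. ENSMFAG00000060865 stood apart on 4 days in 3 animals. It had 39.7 CPM in 39090 on day 3 (others 15.4 to 24.7 CPM), 44.8 CPM in 39100 on day 7 (others 9.43 to 23 CPM), 95.3 CPM in 39090 on day 14 (others 23.4 to 55 CPM) and 58.2 CPM in 39098 on day 17 (others 6.91 to 23.2 CPM). The cause was not tested.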

How the results depend on the processing

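Called members changed with the settings as follows, and the cause was not tested. Each share in brackets is that of all genes tested in the same fit and called in the same direction. For day 8 versus day 7, 59 were called higher (6.0%), with library totals 16 (3.75%), DESeq2 123 (15.4%) and no replicate block 6 (1.48%). The shared run and library tag gave 1 (0.081%), which is the fit without 39095, whose day 7 library has another library tag. Leaving out 39097, 39102, 39103 and 39104, each with a library above 40 M on day 7 or 8, gave 99 (11.4%). With 1 animal left out the count was 1 to 75 (0.081% to 8.13%). For day 17 versus day 14, 92 were called lower (10.8%). Library totals gave 47, of which 42 were lower (4.35%) and 5 higher (32.7%). The shared tag gave 53 lower (4.8%) and no replicate block 74 lower (7.91%). Leaving out 1 animal gave 0 to 101 lower (0.0% to 12.3%), and 1 member was also higher without 39104 (5.25%). For day 17 versus day 0, 33 were called lower (13.6%). Library totals gave 10 (9.65%), DESeq2 54 (16.4%), no filter 20 (7.93%) and no replicate block 3 (6.24%). With 1 animal left out the count was 8 to 50 (9.83% to 13.9%). For day 14 versus day 0, 11 were called higher (7.2%). DESeq2 gave 38 higher (12.7%) and 1 lower (11.7%), no replicate block 31 higher (8.43%) and the shared tag 62 higher (5.01%). With 1 animal left out, 2 to 31 were called higher (4.04% to 6.76%). For day 3 versus day 0, 4 were called lower (7.44%). Library totals gave 1 (6.76%), DESeq2 12 (11.1%), no filter 8 (5.53%) and no replicate block 0 (0.461%). With 1 animal left out, 0 to 16 were called lower (4.64% to 9.92%). For day 4 versus day 3 (0 called), DESeq2 gave 1 higher (0.236%) and 1 animal left out 0 to 1 higher (0.0% to 0.255%). For day 4 versus day 0 (0 called), DESeq2 gave 3 higher (5.73%) and 1 animal left out 0 to 3 higher (0.554% to 6.44%). Without 39102 and 39104 together, 78 members were higher for day 8 versus day 7 (8.8%) and 1 for day 14 versus day 0 (3.68%). In those fits 2 were higher for day 4 versus day 0 (5.66%) and 1 for day 4 versus day 3 (0.691%). Lower were 14 for day 17 versus day 0 (10.1%), 0 for day 17 versus day 14 (0.00623%) and 0 for day 3 versus day 0 (3.11%). The sex difference stayed at 0 called under its 16 alternatives.

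The conditions were met by 178 genes, by 41 without centring, 95 at a day 8 threshold of 0.5, 277 at a day 1 limit of 0.2, 34 without 39102 and 39104, and 72 to 262 with 1 animal left out. The second table gave 187. ENSMFAG00000016924 changed sign in 3 settings, to 0.0241 for day 17 versus day 14 with library totals, and for day 4 versus day 3 to 0.0025 without 39102 and 39104 and to 0.0021 without 39104, the highest of a range that began at -0.1055 with other animals left out. The mean members' day 4 minus day 3 difference stayed positive, between 0.07 without centring and 0.28 without 39104. The members had at least 39 counts in every library. The part of depth in the count of 99 without the animals with libraries above 40 M was not tested. The 8 animals, unnamed genes and the lack of undosed animals limit what can be compared.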
